A study of Mus musculus with 17 samples.

Results

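Mouse mammary tumours of the Papillary and Microacinar histologies, which form gland-like structures, were joined into 1 group (2 tumours, 1 of each label) and compared with the 8 Squamous tumours that carry numbered array titles, out of 17 tumours in all. All were tumours of FVB mice carrying Myc with the T58A change, in the low-expressing form, driven by the MMTV promoter, which acts mainly in mammary epithelium, and the labels give no treatment. RNA was read on 1 Affymetrix array per tumour, and the values are log2 values as the authors deposited them, so a difference of 1 is a doubling. The other 7 tumours (Squamous 9 and EMT 1 to 6, EMT standing for epithelial to mesenchymal transition) were kept out of the comparison and used only to ask where their values lie. The grouping of Papillary with Microacinar comes from the question asked here and not from the labels, which treat them as separate histologies. No label states that each tumour came from its own mouse: Squamous 5 and the Microacinar tumour share a number in their array titles, as do Squamous 7 and Squamous 8. The p-values below therefore speak only of the spread among these 10 tumours, and some of that spread may be technical.

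Secretory mammary epithelium makes caseins, whey proteins and milk fat under prolactin, acting through STAT5 and with the transcription factor Elf5. Squamous differentiation is a different epithelial programme, in which cells switch to suprabasal keratins, build a cornified envelope from filaggrin and small cross-linked proteins, and in some tumours add hair-type keratins. Both programmes can occur in mammary tumours, and a bulk sample holds tumour cells together with fat, muscle, stroma and immune cells.

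The question was which genes place both gland-forming tumours on the same side of every Squamous tumour. Of 12393 genes, each read by its probe set with the highest mean level, both lay above all 8 Squamous tumours on 497 (4.01%) and below all 8 on 474 (3.82%). Most of these separations were narrow: the median gap between the nearer gland-forming tumour and the nearest Squamous tumour was 0.0775 above and 0.0603 below. The gap exceeded 1 for 3 genes above and for 0 below, and exceeded 0.5 for 28 and 4. Leaving out a tumour can only add separated genes, so list counts with a tumour left out stand beside these all-gene counts. Without Papillary 1599 of all 12393 genes lay above and 1476 below, and without Microacinar 1210 and 1346. Without Squamous 1, 2, 4 or 8 they were 775, 953, 552 and 576 above, and 676, 659, 546 and 717 below. At the edge of the rule, Slc34a2 passed above by 0.000364 and 4933417A18Rik missed at -0.000377, while Mefv passed below by 0.000453 and Ighmbp2 tied with a Squamous tumour. limma, which borrows the spread across all genes, called 0 genes higher and 0 lower (0% in each direction) at a Benjamini-Hochberg adjusted p under 0.05, and the smallest adjusted p was 0.156. At an unadjusted p under 0.05 there were 670 genes higher and 557 lower in the gland-forming tumours. No gene named here therefore passed the test, and what follows describes levels. The groups overlapped in RNA integrity: the 3′ minus 5′ difference on the control probe sets for Gapdh and beta-actin was 0.48 in the Papillary and 0.47 in the Microacinar tumour against 0.37 to 0.59 in the Squamous tumours (exact two-sided permutation p = 0.867 over 45 splits). Array medians lay between 7.23 and 7.35, and the mean of 12 housekeeping genes was 11.64 and 11.55 in the gland-forming tumours against 11.49 to 11.70 in the Squamous ones.

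Milk genes were the group of epithelial genes most often separated. Of 22 measured genes for milk proteins and the milk fat globule, both gland-forming tumours lay above all Squamous tumours on 11 and below on 0, against 4.01% of all genes, and all 22 had a higher mean in the gland-forming tumours. The median difference of the list was 0.89, beside -0.00539 over all genes. The 11 were the caseins Csn1s1, Csn1s2a, Csn1s2b, Csn2 and Csn3, the whey genes Wap and Lalba, and Glycam1, Btn1a1, Lao1 and Cel. In bulk tumour RNA, fewer cells of a type and less RNA per cell cannot be told apart. Neighbouring promoter sequence is shown for the 4 of these genes whose window holds the letters TTCNNNGAA, known as the consensus that STAT5-type factors bind and identical to its own reverse complement. Each line runs 5′ to 3′ on the gene's strand, from 250 bases before to 50 bases after the RefSeq start in GRCm38.p6, with the matching letters in capitals.
Csn1s1 (chr5:87665958-87666257, plus strand): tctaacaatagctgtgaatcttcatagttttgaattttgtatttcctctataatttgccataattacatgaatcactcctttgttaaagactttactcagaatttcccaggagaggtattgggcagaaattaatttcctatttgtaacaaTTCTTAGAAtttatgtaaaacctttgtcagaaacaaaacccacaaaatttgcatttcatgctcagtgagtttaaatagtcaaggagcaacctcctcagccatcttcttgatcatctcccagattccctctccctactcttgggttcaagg
Csn2 (chr5:87699376-87699675, minus strand): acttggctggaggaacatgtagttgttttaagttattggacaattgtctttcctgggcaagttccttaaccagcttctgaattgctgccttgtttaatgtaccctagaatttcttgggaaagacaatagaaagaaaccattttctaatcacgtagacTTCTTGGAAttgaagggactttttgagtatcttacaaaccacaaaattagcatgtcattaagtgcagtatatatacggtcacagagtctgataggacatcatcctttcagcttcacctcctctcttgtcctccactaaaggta
Csn1s2a (chr5:87774200-87774499, plus strand): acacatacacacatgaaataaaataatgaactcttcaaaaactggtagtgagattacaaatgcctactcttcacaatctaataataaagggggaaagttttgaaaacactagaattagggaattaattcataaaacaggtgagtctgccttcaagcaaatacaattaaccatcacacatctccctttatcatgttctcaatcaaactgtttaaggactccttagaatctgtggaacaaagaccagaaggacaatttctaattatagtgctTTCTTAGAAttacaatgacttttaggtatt
Glycam1 (chr15:103565032-103565331, minus strand): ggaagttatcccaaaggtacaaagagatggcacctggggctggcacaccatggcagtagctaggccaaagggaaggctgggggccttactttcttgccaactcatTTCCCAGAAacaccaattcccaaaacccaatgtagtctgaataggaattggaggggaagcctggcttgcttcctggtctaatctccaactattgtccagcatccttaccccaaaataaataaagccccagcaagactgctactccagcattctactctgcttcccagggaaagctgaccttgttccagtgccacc
The match begins at base -100 for Csn1s1, -93 for Csn2, -145 for Glycam1 and 21 for Csn1s2a, where it lies after the start. A window was available for 8 of the 11 separated milk genes, and 4 held the letters. Of the 11 milk genes whose groups overlapped, 8 had a window and 0 held them. The split into separated and overlapping genes uses the values of the rule itself, and the contrast between these counts was not tested. Among all tested genes with a window, 835 of 9887 did (8.45%), as did 8.30% of all 32851 windows of the same length. A match is a description of the sequence and not a site shown to be bound.

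The 4 sequences belong to genes whose separation was slight, and which were near the top of the scale in most Squamous tumours. Csn2, the beta-casein gene, read 14.42 in the Papillary and 14.46 in the Microacinar tumour and ran from 13.63 through a median of 14.25 to 14.39 in the Squamous tumours. The alpha-casein gene Csn1s1 read 14.23 and 14.27 against 12.21, 13.98 and 14.16. Csn1s2a read 14.51 and 14.45 against 13.51, 14.31 and 14.41. Array maxima were 14.33 to 14.54, so these probe sets had little room to separate the tumours. Glycam1, a mucin-like milk protein gene, had 14.31 and 14.24 against 10.84, 13.87 and 14.20, so the lowest Squamous tumour stood far below the other values while the highest came close to the pair.

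Among the marker genes, Csn3 (kappa-casein, which holds casein micelles in solution) read 14.40 in the Papillary and 14.54 in the Microacinar tumour against a Squamous lowest, median and highest of 13.52, 14.17 and 14.38. Its difference of means was 0.38 (SE 0.20, adjusted p = 0.555 by limma). Wap, the whey acidic protein gene, read 14.18 and 14.31 against 10.59, 13.49 and 14.12, with a difference of 1.22 (SE 0.90, adjusted p = 0.676). Both genes were separated by less than 0.1 from the highest Squamous tumour, with gaps of 0.02 for Csn3 and 0.06 for Wap. Lao1, a secreted L-amino acid oxidase of milk, read 12.44 and 13.77 against 8.24, 11.21 and 12.22. The mean of Lao1 was 5.43-fold higher (difference 2.44, SE 1.01, adjusted p = 0.475). The 4th marker, Abcg2, a transporter that carries riboflavin and drugs into milk, did not separate the groups: it read 12.61 and 11.99 against 8.91, 10.39 and 12.21, because Squamous 1 (12.21) lay above the Microacinar tumour.

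The other separated milk genes had larger differences of means, with gaps that were wide only for Lalba. Lalba, the alpha-lactalbumin subunit of lactose synthase, read 13.68 and 13.88 against 8.05, 12.02 and 12.95, so the nearer tumour cleared the highest Squamous tumour by 0.72 (difference 2.12, SE 1.08, adjusted p = 0.547). Csn1s2b, another alpha-S2-type casein gene, read 11.37 and 12.26 against 5.14, 7.03 and 11.30. Its mean was 19.7-fold higher (difference 4.30, SE 1.35, adjusted p = 0.415), while Squamous 8 alone reached 11.30 and closed the gap to 0.07. Cel, the bile salt-stimulated lipase of milk, read 11.75 and 11.80 against 7.48, 10.61 and 11.68. Btn1a1, the butyrophilin needed to secrete milk fat droplets, read 13.06 and 13.05 against 8.68, 11.85 and 12.86.

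**Figure D1:**
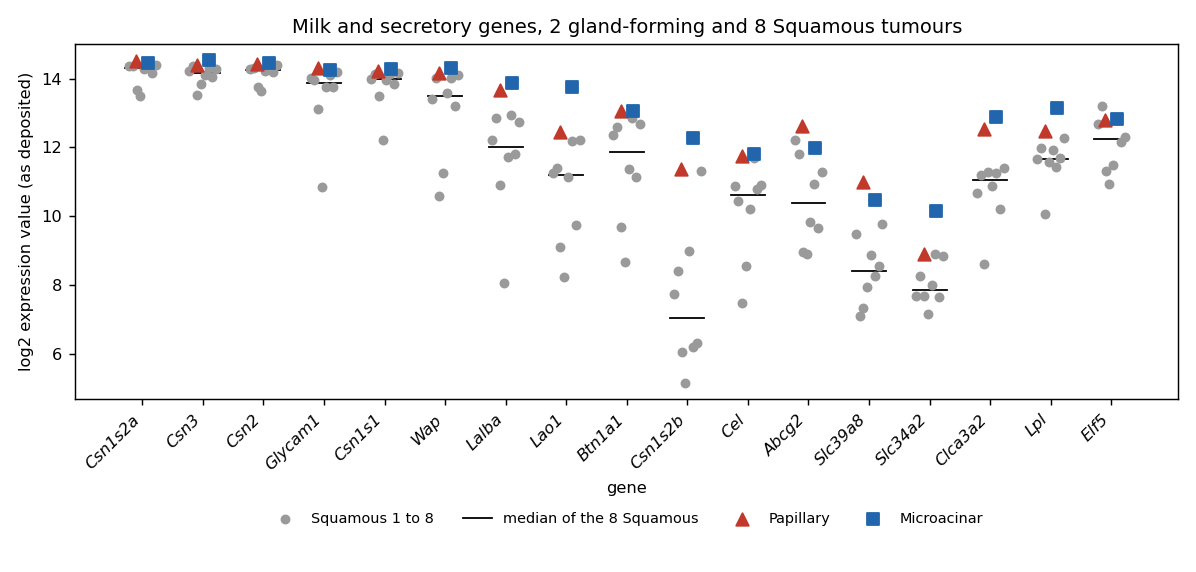
Log2 values of the 11 separated milk genes and of 6 secretory or lipid genes, 1 column per gene, with the 8 Squamous tumours as grey points, their median as a line, the Papillary tumour as a triangle and the Microacinar tumour as a square. Csn1s1, Csn1s2a, Csn2 and Csn3 sit near the top of the scale in nearly every tumour, Csn1s2b spreads widely, while Lalba, Lao1, Slc39a8 and Clca3a2 leave a visible gap, and Abcg2 and Elf5 overlap.

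Milk gene levels were continuous across the Squamous label. The list mean was 12.54 in the Papillary and 12.81 in the Microacinar tumour. Among Squamous tumours it ran from 10.16 (Squamous 4) and 10.55 (Squamous 3) to 12.31 (Squamous 2) and 12.34 (Squamous 8), so the nearest Squamous tumour lay 0.2 below the Papillary one. Only 4 of 33 gene lists had both gland-forming means above all Squamous means (milk, secretory transporters, skeletal muscle and oxidative phosphorylation), and 0 had both below. For transporters the margin was slight, 8.78 in the Papillary tumour against 8.77 in Squamous 1. Within the pair that shares a title number, the Microacinar tumour had a milk mean of 12.81 and Squamous 5 one of 11.54. Under quantile normalization 7 of the 22 milk genes were separated, and with each array's median subtracted 10 were.

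Genes that carry ions and nutrients into milk had 3 of 27 members above and 1 below, where all genes gave 4.01% and 3.82%, with a median difference of 0.29. The 1 below is near the share among all genes. Slc39a8, an importer of zinc and manganese, read 11 and 10.48 against 7.09, 8.40 and 9.77 and was 5.02-fold higher in mean (difference 2.33, SE 0.64, adjusted p = 0.412). Slc34a2, the phosphate transporter of the secretory surface, read 8.91 and 10.15 against 7.15, 7.84 and 8.91, so the Papillary tumour was level with the highest Squamous tumour. Atp2b2, the other member above, read 4.94 and 5.25 against 4.69, 4.83 and 4.89. All of these values lay under the array lower quartiles of 5.33 to 5.41. Aqp3, a glycerol and water channel that is also abundant in epidermis, was the member below, at 6.18 and 6.01 against 6.19, 7.95 and 9.17. The transporter count moved with single tumours: it was 5 without Squamous 1, 7 without Squamous 2, 6 without Papillary and 8 without Microacinar. Over all 12393 genes the counts above in these settings were 775, 953, 1599 and 1210. The count below was 0 under quantile normalization, with array medians subtracted and with the mean of probe sets, and 3 without Papillary.

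Lipid synthesis genes were higher in mean for 22 of 26 members, with 5 above all Squamous tumours, 0 below and a median difference of 0.78. The 5 above were 19.2% of the list, beside 4.01% of all genes. Lpl, the lipase that delivers fatty acids from blood lipids, read 12.48 and 13.14 against 10.05, 11.68 and 12.26 (difference 1.24, SE 0.46, adjusted p = 0.454). Me1, which supplies NADPH for fatty acid synthesis, read 10.82 and 11.23 against 9.14, 9.87 and 10.65. Acss2, which makes acetyl-CoA from acetate, read 8.55 and 9.23 against 7.10, 7.81 and 8.48, and Aacs and Elovl5 were the other 2 separated members. Fasn, the fatty acid synthase itself, overlapped at 12.36 and 12.69 against 10.60, 11.38 and 12.95. The count of separated members was 10 without Squamous 2 and 11 without Papillary, beside 953 and 1599 above among all 12393 genes.

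Fat tissue genes stood beside these lipid values. All 13 adipocyte genes had a higher mean in the gland-forming tumours (median difference 1.28), but only Pnpla2 was separated (7.69%, beside 4.01% of all genes). Pnpla2, a triglyceride lipase, read 10.15 and 10.92 against 8.89, 9.60 and 10.05. The adipocyte mean was 9.42 in the Microacinar and 7.49 in the Papillary tumour and ran from 6.16 to 8.57 in the Squamous tumours. Adipoq, the fat cell hormone adiponectin, read 8.64 and 11.87 against 4.14, 6.63 and 10.88. The count of separated adipocyte genes was 13 without Papillary, 4 without Squamous 4, and 2 under quantile normalization or with the mean of probe sets. Squamous 4 had the highest adipocyte mean of its group, 8.57, with a lipid synthesis mean of 9.78 and a milk mean of 10.16, the lowest of the 8. Lpl is made by fat, muscle and secretory mammary cells alike, and the part of fat tissue in the lipid values was not tested.

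The regulators and keratins of luminal cells were not separated upward as milk genes were. Of 30 alveolar and luminal regulators 0 lay above and 2 below (Wnt4 and Msx2), with a median difference of 0.05. The 2 were 6.67% of the list, beside 3.82% of all genes. The count below was 4 without Papillary or without Microacinar, when 1476 and 1346 of all 12393 genes lay below. Elf5 read 12.79 and 12.82 against 10.94, 12.23 and 13.21. Its mean was higher in the gland-forming tumours (difference 0.70, SE 0.54, adjusted p = 0.692 by limma). Its lowest Squamous values were in Squamous 4 (10.94) and Squamous 3 (11.30), which also had the lowest milk means. Stat5a, which carries the prolactin signal to milk genes, read 10.71 and 10.33 against 8.34, 9.55 and 10.88. Of 23 simple-epithelial keratin and luminal surface genes 0 were separated. Krt8 read 12.98 and 12.47 against 11.56, 12.47 and 13.18, and its partner Krt18 read 12.72 and 12.18 against 11.71, 12.08 and 12.61. Cdh1 (E-cadherin) and Epcam, epithelial adhesion genes, also overlapped, with differences of -0.09 (SE 0.21) and 0.36 (SE 0.21).

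By median difference, keratinised epithelium was the main group on the other side, and here the Papillary and Microacinar tumours differed from each other. Of 14 suprabasal and stress keratins all had a lower mean in the gland-forming tumours and 3 lay below all Squamous tumours, against 3.82% of all genes, with a median difference of -1.66. Of 40 cornified envelope and barrier genes 38 had a lower mean and 4 lay below (median difference -1.78). Of 25 hair follicle genes 24 had a lower mean and 4 lay below (median difference -1.48). Differences of means were large while separations were few, and the counts moved when single tumours of either group were left out. The cornified mean was 7.22 in the Papillary and 5.94 in the Microacinar tumour, and 6.39 in Squamous 8, 7.66 in Squamous 2 and up to 9.95 in Squamous 3. Squamous 8 also had the highest means of its group for macrophage (10.91), T and NK cell (6.60) and B and plasma cell genes (8.02), and their part in its low keratinocyte values was not tested. Without Squamous 8, 22 of the 40 cornified genes and 9 of the 14 suprabasal keratins lay below, and with Squamous 7 and Squamous 8 averaged the counts were 15 and 7. Over all 12393 genes the counts below in these settings were 717 and 638. Without Squamous 1, whose hair follicle mean was 6.36, 17 of the 25 hair genes lay below. Without the Papillary tumour the counts were 27, 11 and 19, beside 1476 below among all 12393 genes. Under quantile normalization 1 suprabasal keratin lay below, beside 419 of all 12393 genes.

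Krt1, the first keratin of suprabasal epidermis, read 5.40 in the Papillary and 5.53 in the Microacinar tumour, against a Squamous lowest, median and highest of 5.75, 8.85 and 12.07. The difference of means was -3.55 (SE 1.69, adjusted p = 0.525), and both gland-forming values were close to the array lower quartiles of 5.33 to 5.41, so no fold is given. The partner of Krt1, Krt10, read 6.84 and 6.48 against 6.61, 9.90 and 12.52, so Squamous 8 at the low end reached into the pair. Both genes spanned more than 5 log2 units within the Squamous label. Flg, the filaggrin gene, read 4.24 and 4.08 against 4.27, 6.40 and 9.56. Its gap of 0.03 lay between values under the array lower quartiles. The cornified envelope gene Lce1a1 read 6.53 and 6.42 against 6.83, 8.95 and 10.34, and its family member Lce1i 7.19 and 7.48 against 7.90, 8.95 and 9.94. The Lce1 genes are close copies, so which copy a probe set reads is uncertain. Serpinb2, a protease inhibitor of differentiating keratinocytes, read 5.25 and 4.24 against 5.42, 7.98 and 9.51 (difference -2.99, SE 0.99, adjusted p = 0.431). Aloxe3, also among the cornified genes below, read 5.76 and 5.75 against 5.91, 6.17 and 6.71. Ivl, the involucrin gene, read 5.78 and 5.45 against 5.25, 5.50 and 6.34, close to the array lower quartiles of 5.33 to 5.41, and showed no separation.

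**Figure D2:**
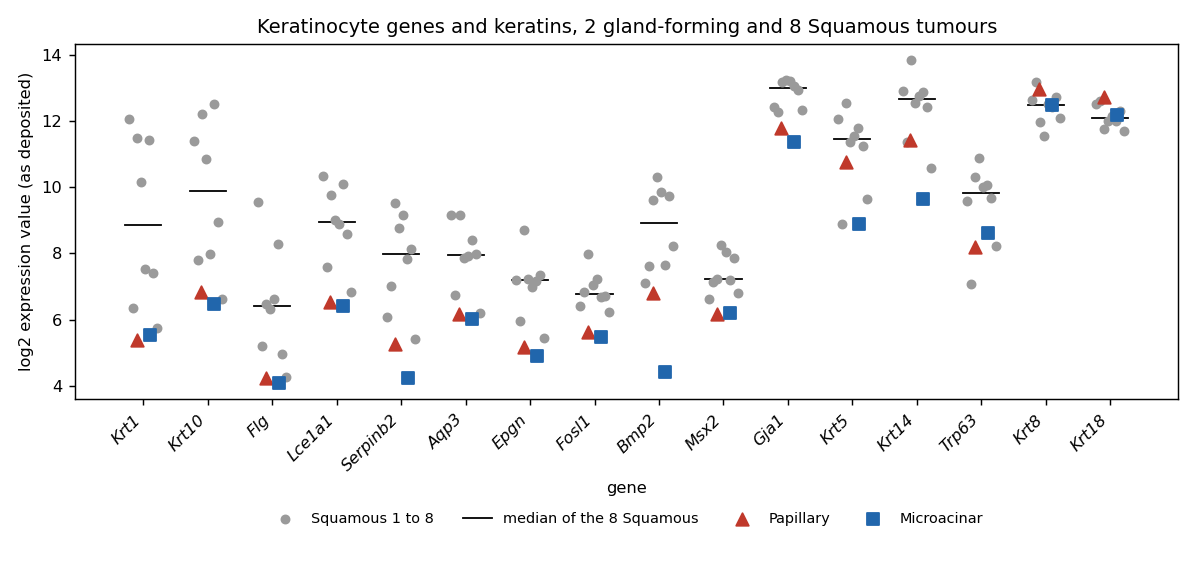
Log2 values of keratinocyte, signalling and keratin genes, 1 column per gene, with grey points for Squamous 1 to 8, a line for their median, a triangle for the Papillary and a square for the Microacinar tumour. Krt1 and Krt10 span more than 5 log2 units among the Squamous tumours, Bmp2 and Gja1 lie lower in both gland-forming tumours, and Krt8 and Krt18 overlap.

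Stress keratins set the Papillary tumour apart from the Microacinar one. Krt16, a keratin of wounded and hyperproliferative epidermis, read 8.50 in the Papillary tumour, inside the Squamous range of 7.01 to 12.90, and 4.73 in the Microacinar tumour, below it. Krt6a read 10.85 and 7.43 against 9.04, 12.11 and 13.58. Basal genes overlapped for all 20 members: Krt5 read 10.75 and 8.90 against 8.89, 11.46 and 12.55, Krt14 read 11.42 and 9.64 against 10.58, 12.66 and 13.84, and the basal regulator Trp63 read 8.19 and 8.61 against 7.09, 9.83 and 10.88. The separated hair genes Krt84, Krtap3-1, Hoxc13 and Foxn1 had differences of -0.95, -1.06, -0.91 and -0.55. Of these, Hoxc13 and Foxn1 are transcription factors of the hair shaft. Foxn1 read 4.98 and 5.17 against a Squamous lowest of 5.20, all under the array lower quartiles. Hoxc13 read 5.26 and 5.50 against a lowest of 5.72, near them. Krt13 and Krt77, the other separated suprabasal keratins, differed by -0.13 and -0.18 at levels under the array lower quartiles, and a 2nd probe set of Krt13 had the opposite sign.

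Several signalling genes with known roles in keratinocytes also lay lower in both gland-forming tumours. Bmp2, a secreted ligand of the BMP pathway, read 6.79 in the Papillary and 4.41 in the Microacinar tumour against 7.12, 8.92 and 10.30 (difference -3.17, SE 0.93, adjusted p = 0.412). Msx2, a homeobox gene that BMP signalling induces, read 6.16 and 6.19 against 6.63, 7.22 and 8.26, and the inhibitory Smad6 read 6.99 and 6.95 against 7.20, 7.54 and 8.48. These were the 3 of 18 BMP and Id genes below (median difference -0.64), and 0 lay above, against 3.82% and 4.01% of all genes. Msx2 is also counted among the luminal regulators below. Of 26 Wnt genes 4 lay below (Cd44, Wnt10b, Wnt7a and Wnt3a), which is 15.4%. Dkkl1 alone lay above (3.85%), near the share among all genes. Cd44, the hyaluronan receptor, read 10.84 and 9.95 against 10.96, 11.60 and 12.34, while the Wnt ligands lay at 5.00 to 5.75 in the gland-forming tumours, near the array lower quartiles. Without Papillary the counts below were 8 for the BMP list and 16 for the Wnt list. Over all 12393 genes the count below then rose from 474 to 1476. The Wnt count above was 0 with Squamous 9 added and 2 without Microacinar.

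Of the ErbB ligands, Egf lay above and Epgn below all Squamous tumours. Egf read 7.0 and 7.41 against 5.02, 5.59 and 6.45 and was 2.93-fold higher in mean (difference 1.55, SE 0.36, adjusted p = 0.412). Epgn, the epigen gene of the same ligand family, read 5.17 and 4.90 against 5.45, 7.19 and 8.71 (difference -1.98, SE 0.65, adjusted p = 0.431), with both gland-forming values below the array lower quartiles. The other 10 of 12 ErbB genes overlapped, so 8.33% lay above and 8.33% below, beside 4.01% and 3.82% of all genes. The ErbB count above was 2 without Squamous 1, and the count below was 3 without Microacinar and 2 without Papillary, without Squamous 8 or with Squamous 7 and Squamous 8 averaged. Fosl1, an AP-1 subunit, read 5.62 and 5.47 against 6.24, 6.78 and 7.98, with a gap of 0.62, and Prdm1, a repressor used in keratinocytes and plasma cells, read 7.11 and 6.34 against 7.18, 8.01 and 8.85. These were the 2 of 21 squamous regulators below (9.52%, beside 3.82% of all genes). The regulator count was 8 without Papillary, 6 without Squamous 8 and 5 with Squamous 7 and Squamous 8 averaged.

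Skeletal muscle genes were separated more often than any other list, 12 of 20 above and 0 below, with a median difference of 2.73. All genes gave 4.01% above and 3.82% below. Acta1, skeletal actin, read 12.34 and 13.25 against 6.43, 6.97 and 12.19. Tnnc2, a fast-fibre troponin, read 11.04 and 11.60 against 4.55, 5.35 and 10.78, and titin (Ttn) read 9.94 and 11.09 against 4.47, 5.46 and 9.83. The Squamous tumours fell into 2 sets on this list: its mean was 7.71, 8.33 and 8.29 in Squamous 1, 3 and 6, and 5.28 to 5.63 in the other 5, against 8.74 in the Papillary and 9.85 in the Microacinar tumour. EMT 4 had a higher mean than either, 10.52. The part of muscle taken with the tumour in the other lists was not tested.

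Oxidative phosphorylation genes, which encode the respiratory chain and are abundant in muscle, were higher in mean for 25 of 25 members (median difference 0.35). With 8 above all Squamous tumours, 32.0% of the list was separated, beside 4.01% of all genes. Cycs, cytochrome c, read 12.83 and 12.88 against 11.85, 12.03 and 12.40 (difference 0.78, SE 0.16, adjusted p = 0.362). Ndufa4, a small respiratory chain subunit, read 11.74 and 11.82 against 10.73, 11.12 and 11.23 (difference 0.76, SE 0.14, adjusted p = 0.362). Sdhb, the iron-sulphur subunit of succinate dehydrogenase, read 10.94 and 11.44 against 9.98, 10.66 and 10.75. The other 5 were Ndufa9, Ndufs1, Sdhc, Cyc1 and Cox5a. The list mean was 11.49 in the Papillary and 11.72 in the Microacinar tumour against 11.07 to 11.45 in the Squamous tumours. In EMT 4, with the highest muscle mean of all 17 tumours, it was 11.13, and in Squamous 2, with a muscle mean of 5.56, it was 11.45. The count was 16 without Squamous 2, 19 without Papillary and 5 with Squamous 9 added to the Squamous group.

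**Figure D3:**
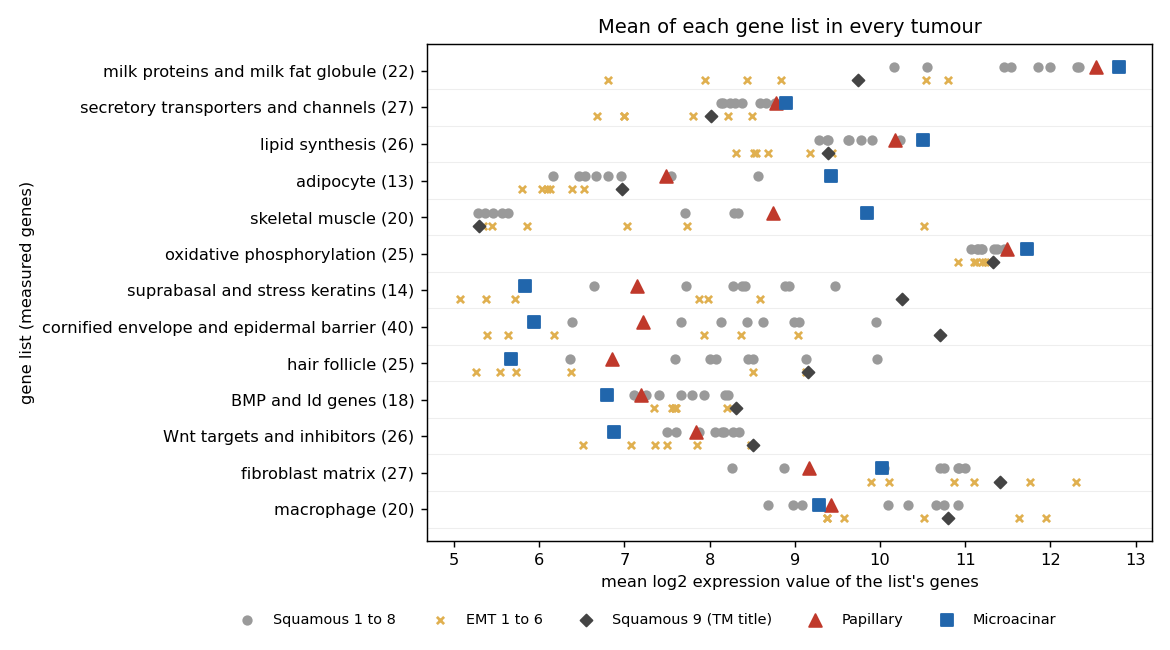
Mean log2 value of the genes of 13 lists in every tumour, 1 row per list, with the 8 Squamous tumours, the Papillary tumour (triangle) and the Microacinar tumour (square) on the upper line and the 6 EMT tumours (crosses) and Squamous 9 (diamond) on the lower line. Both gland-forming tumours lie right of all 8 Squamous tumours for milk, transporters, skeletal muscle and oxidative phosphorylation, and Squamous 8 lies left of the Papillary tumour for suprabasal keratins and the cornified envelope. For transporters the Papillary tumour (8.78) is nearly level with Squamous 1 (8.77).

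Most stromal and immune lists had no separated gene. All 27 fibroblast matrix genes had a lower mean in the gland-forming tumours, with 0 separated and a median difference of -0.52. The list mean was 9.17 and 10.02, against 8.26 to 11 in the Squamous tumours, where Squamous 1 (8.26) and Squamous 2 (8.87) lay below both. Macrophage genes had a median difference of -0.60 with means of 9.42 and 9.28 against 8.68 to 10.91, and neutrophil and inflammatory genes had one of -0.62. Neither list had a separated gene, and neither did the T and NK cell, class II, interferon, endothelial and mesenchymal lists. The B and plasma cell list had 2 of 17 members below, against 3.82% of all genes, with a median difference of -0.04. They were Prdm1, given above, and Sdc1, a surface proteoglycan of plasma cells that epithelium also makes, at 10.83 and 10.70 against 10.95, 11.31 and 11.94. Interferon genes differed between the gland-forming tumours, with a mean of 8.59 in the Papillary and 7.09 in the Microacinar tumour. Vim (vimentin) and Acta2 (smooth muscle actin) overlapped, with differences of -0.40 (SE 0.61) and 0.19 (SE 0.64).

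Myc, whose probe set may or may not read the transgene, was 10.20 in the Papillary and 10.28 in the Microacinar tumour against 9.79, 11.62 and 12.29 (difference -1.0, SE 0.65, adjusted p = 0.635). The groups overlapped, and the Microacinar tumour lay 0.49 above Squamous 5, with which it shares a title number. Of 30 Myc target genes in ribosome biogenesis 1 lay above (3.33%, near the 4.01% of all genes), with a median difference of 0.04. It was Srm, spermidine synthase, at 10.71 and 10.60 against 9.74, 10.12 and 10.45. The count of Myc targets above was 6 without Microacinar and 2 without Squamous 2. Of 34 proliferation genes 1 (2.94%) lay above (Foxm1, by less than 0.01), with a median difference of 0.05. That count was 0 under quantile normalization, with array medians subtracted, with the mean of probe sets and with Squamous 9 added, and 6 without Microacinar. Of 33 secretory pathway and unfolded protein response genes Pdia4 and Dnajc3 lay above (6.06%) and Atf6 below (3.03%, beside 3.82% of all genes). The count above was 4 with Squamous 7 and Squamous 8 averaged or without Microacinar, 5 without Papillary, and 6 without Squamous 2 or without Squamous 8. The count below was 0 under quantile normalization and with array medians subtracted, and 3 without Microacinar. Pdia4, an endoplasmic reticulum folding enzyme, read 9.26 and 9.46 against 8.51, 8.64 and 9.15, but another of its probe sets had the opposite sign. Of 21 hypoxia and glycolysis genes Aldoc lay above (4.76%, beside 4.01% of all genes) and Adm and P4ha2 below (9.52%, beside 3.82%). The count above was 0 with the mean of probe sets, and 2 without Papillary, Microacinar, Squamous 1 or Squamous 2. The count below was 5 without Papillary and 4 without Microacinar or without Squamous 8. Over all 12393 genes the counts without Papillary were 1599 above and 1476 below, and without Microacinar 1210 and 1346.

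**Figure D4:**
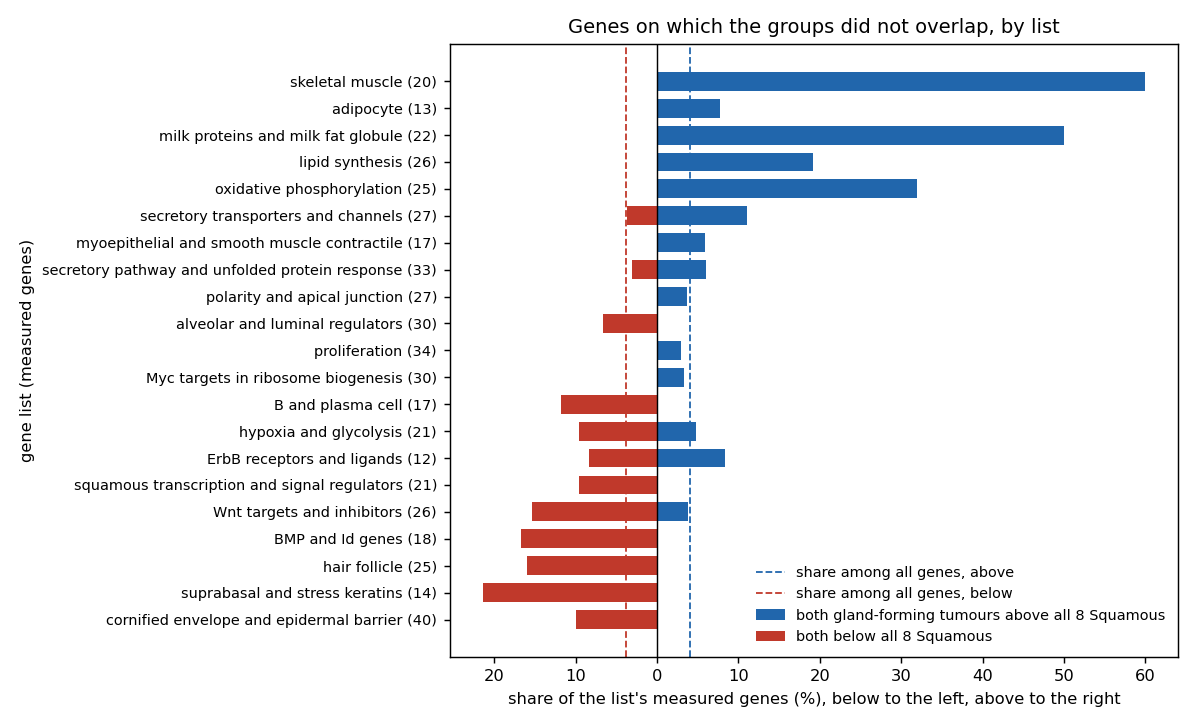
Share of each list's measured genes on which both gland-forming tumours lay above (right) or below (left) all 8 Squamous tumours, in percent, for the 21 lists with at least 1 such gene, ordered by median difference. Dashed lines mark the shares among all genes, 4.01% above and 3.82% below, and skeletal muscle (12 of 20 genes), milk (11 of 22) and oxidative phosphorylation (8 of 25) reach furthest to the right.

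The widest gaps of all above were 1.72 for Ckmt2 and 1.40 for Myot, both muscle genes with gland-forming means under 7.79. Among genes with a mean above that level, the median gene level, the widest gap was that of Clca3a2, a calcium-activated chloride channel regulator of mammary epithelium, which read 12.55 and 12.88 against 8.60, 11.04 and 11.39 (gap 1.16, difference 2.03, SE 0.63, adjusted p = 0.412). Its neighbour Clca3a1 read 10.34 and 10.53 against 6.89, 8.91 and 9.50. The pair are near-identical copies, so their readings may not be independent. Among the 15 widest gaps above at that level, some of them list members already described, 5 were muscle genes (Tnni2, Cmya5, Eno3, Mylpf and Myl1). The others included Ceacam10 (10.84 and 11.65 against 6.30, 9.43 and 10.09), Saa2, an acute-phase protein also made by mammary epithelium (11.98 and 12.55 against 8.23, 10.59 and 11.35), and Cav2, a caveolin (11.29 and 11.24 against 9.41, 10.06 and 10.52). Other probe sets of Cav2, Ceacam10 and Tnni2 had differences of means as small as 0.06, 0.15 and 0.19. Aass, a lysine-degrading enzyme, Ppp1r3c, which targets a phosphatase to glycogen, and 1810065E05Rik had gaps of 0.71, 0.64 and 0.64.

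On the lower side, among genes whose Squamous mean was above 7.79, the widest gap was 0.54, for Psors1c2, a neighbour of the corneodesmosin gene, at 6.66 and 5.30 against 7.20, 8.21 and 9.84. Gja1, connexin 43, read 11.79 and 11.36 against 12.28, 12.99 and 13.23 (difference -1.25, SE 0.29, adjusted p = 0.412). Cyp1b1, a cytochrome P450 that metabolises oestrogen, read 8.86 and 9.34 against 9.82, 10.08 and 11.12. These were followed by Impact, Lce1i, the heparan sulphate proteoglycan Gpc1, Atp6v1b2, Bmp2, Nkain1, Dlgap4, Lce1a1, the growth factor Pdgfa, Rnh1, Anxa2 and Bnc1, a keratinocyte transcription factor that read 6.49 and 6.61 against 6.87, 8.49 and 9.64. Atp6v1b2 and Anxa2 each had another probe set of the opposite sign, and another probe set of Cyp1b1 differed by only -0.09.

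The tumours left out of the comparison show how far these separations extend, and since the gland-forming values chose the genes, the counts describe and do not test. Of the 497 genes above, 433 (87.1%) also had both gland-forming tumours above Squamous 9, against 42.2% of all genes, and of the 474 below 385 (81.2%) had both below it, against 45.2%. Squamous 9 had the highest cornified mean of the 17 tumours, 10.70, with Krt1 at 14.43 and a milk mean of 9.74. Against all 15 other tumours 223 genes lay above and 200 below. All 11 separated milk genes were among these, with EMT milk means of 6.81 to 10.80, as were 4 of the 8 oxidative phosphorylation genes (Ndufa4, Ndufa9, Cyc1 and Cycs). By contrast 0 of the 4 hair genes and 0 of the 12 muscle genes were, and EMT 4 had the muscle mean of 10.52 given above. Squamous 9, EMT 5 and EMT 6 carry TM in their titles and have a wider spread of values than the other arrays.

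By the form of the rule, each gland-forming tumour alone lies outside the Squamous range at least as often as the pair does. The Papillary tumour was above all Squamous tumours on 1210 genes and below on 1346, by more than 1 for 12 and 2 of them. The Microacinar tumour was above on 1599 and below on 1476, by more than 1 for 80 and 51. Some of the genes furthest from the Squamous range differed between the pair. Myh7, the slow-fibre myosin heavy chain, read 9.87 in the Microacinar and 4.77 in the Papillary tumour against 4.62 to 4.83 in the Squamous tumours, and the slow-fibre light chain Myl2 read 10.91 and 5.03 against 4.69 to 4.97. Axin2, a feedback gene of Wnt signalling, read 6.77 in the Microacinar and 10.35 in the Papillary tumour against 9.85 to 10.66. With Papillary, Microacinar and Squamous fitted as 3 groups, so that only the Squamous tumours set the spread, limma called 12 genes higher and 2 lower. These included Myh7 and Axin2, genes on which 1 gland-forming tumour stood far from everything else, and Myo1e, on which both lay below (5.39 and 6.13 against 6.44 to 6.72).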

How the data were processed

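RNA of 17 tumours was read on 1 array each. The authors deposited 1 log2 value for each of 22690 probe sets. Their normalization is not given in the sources used here, the log2 scale follows from the range of the values, and the values were used unchanged. Of the probe sets 20380 carried 1 gene symbol in the supplied platform annotation, 691 several, 1555 none and 64 were controls. The supplied gene table matched 20351 by gene identifier. Each of 12393 genes was read by its probe set with the highest mean over the 10 arrays compared, and 4956 genes had several.

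The 2 gland-forming and 8 Squamous tumours entered a limma fit (version 3.58.1, R 4.3.3). Its moderated p-values were adjusted by Benjamini-Hochberg across the 12393 genes. A gene was counted as separated where both gland-forming values lay beyond all 8 Squamous values, and its gap is the distance between the nearest values of the groups. No term for title number was used, and it was tried as a random block. RNA integrity was compared by exact two-sided permutation. On simulated data for this comparison over 12393 genes the test recovered 39, 43, 49 and 49 of 50 changed genes at log2 changes of 1, 2, 3 and 4, with 12 false calls in all. In that simulation the 2 tumours of a group shifted equally, the noise was drawn independently for each gene, and all changed genes were present together. The recovery therefore does not give the power in the real data, where 0 genes were called.

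The members and the 33 gene lists (797 entries, 716 measured) were chosen with earlier results of these data known. The named genes were the markers Csn3, Wap, Abcg2 and Lao1, then the 15 widest gaps on each side among genes whose higher group mean exceeded the median gene level of 7.79, then up to 4 separated members per list with the largest difference, then Myc, Elf5, Krt8, Krt18, Krt5, Krt14, Trp63, Ivl, Krt10, Cdh1, Epcam, Vim and Acta2, which made 96 genes. Of these, 37 had several probe sets. Aacs, Aldoc, Anxa2, Atp6v1b2, Krt13 and Pdia4 had a probe set of opposite sign. Csn1s1, Csn2, Csn1s2a, Glycam1, Btn1a1, Stat5a, Fasn, Adipoq, Krt6a, Krt16, Myh7, Myl2, Ckmt2, Myot, Axin2, Myo1e and the remaining separated list members were chosen after their values were seen. Promoter windows are those of RefSeq. Other steps ran in Python 3.11.15 with numpy 2.4.6, pandas 2.3.3, matplotlib 3.10.9 and scipy 1.17.1.

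The alternatives changed the scaling (quantile normalization, or array medians subtracted), the probe sets (their mean, or every one), the low-level filter, the variance model (trend with robust, or array weights), the groups (3 histologies, all 17 tumours, or Squamous 9 added), the handling of shared title numbers (Squamous 7 and Squamous 8 averaged, or a random block), the fold threshold, and the tumours, each left out in turn. Counts of list members under the scalings, the mean of probe sets, Squamous 9 added, the averaged pair and each tumour left out were added after the data were seen.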

Additional observations from a re-analysis of the deposited data

Results flagged for a closer look

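Among 130 groups of values (the 96 named genes and the list means in the 8 Squamous tumours, with the RNA integrity reading), 7 held a tumour far from the other 7, judged by the gap to its neighbour as a share of the group's range. Chance marks about 1 in 20 groups. The T and NK cell list mean was 6.60 in Squamous 8 against 5.47 to 5.71 in the others, a share of 0.78. Sdhb was 9.98 in Squamous 2 against 10.57 to 10.75 (0.76). Lpl was 10.05 in Squamous 3 against 11.43 to 12.26 (0.63), and Clca3a2 was 8.60 there against 10.21 to 11.39 (0.58). Lalba was 8.05 in Squamous 4 against 10.90 to 12.95 (0.58). Ivl was 6.34 in Squamous 1 against 5.25 to 5.66 (0.63). Foxn1 was 6.45 in Squamous 7 against 5.20 to 5.76 (0.55). For Sdhb, Lpl, Clca3a2, Lalba and Foxn1 the tumour apart is the one furthest from the gland-forming pair. It therefore widens the difference of means and leaves the separation as it is.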

How the results depend on the processing

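The limma count of higher genes (0) became 12 with 3 histology groups and 3 with all 17 tumours, and the count of lower genes (0) became 2 with 3 histology groups. Leaving out each tumour gave 0 to 19 higher genes, with 19 without Papillary and 1 without Microacinar, and 0 to 2 lower genes, with 2 without Papillary and 1 without Microacinar. The 497 genes above became 810 when every probe set was counted and 265 among genes above the median level, and the 474 below became 736 and 200. Leaving out each tumour gave 512 to 1599 above (775 without Squamous 1, 953 without Squamous 2, 1210 without Microacinar, 1599 without Papillary) and 505 to 1476 below (717 without Squamous 8, 1346 without Microacinar, 1476 without Papillary). A single gland-forming tumour leaves the rule with 1 value to satisfy it. Over 96 named genes and their settings 2006 of 2016 differences kept their direction, and 0 of these genes passed the adjusted threshold in any of them. The 10 that turned sign were Acta2 (-0.09 with array weights, -0.04 to 0.33 leaving out each tumour and lowest without Squamous 1, -0.47 for Microacinar minus Squamous 5), Cdh1 (-0.31 to 0.13 leaving out each tumour, highest without Microacinar), Ivl (-0.07 with Squamous 9 added, -0.06 with all 17 tumours, -0.12 to 0.21 leaving out each tumour and lowest without Papillary, -0.03 for Microacinar minus Squamous 5), Krt8 (-0.06) and Myc (0.49), the last pair also for Microacinar minus Squamous 5. The RNA integrity difference was 0.02 on beta-actin alone, opposite in sign to the -0.01 reported. The cause of these moves was not tested. No paired analysis was possible because the groups share a single title number. With 2 tumours on 1 side, of different histologies, and no repeat array of any tumour, the number of tumours limits every value, and milk genes near the array maximum have little room for a difference.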
